A study of Mus musculus with 6 samples.

Results

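Proteins on the cell surface can be cut off by membrane-anchored metalloproteases, and the genes described here encode those enzymes and their inhibitors. They were chosen by name, with no measured value in the rule, and are Adam8, Adam9, Adam10, Adam15 and Adam17, the membrane-type matrix metalloproteases Mmp14 and Mmp25, and the tissue inhibitors of metalloproteases Timp1, Timp2 and Timp3, 10 of the 36083 genes in the deposited table. RNA-seq was run on Lin- cells, which lack the surface markers of mature blood lineages, of blast crisis chronic myeloid leukemia (bcCML), a myeloid leukemia with immature cells, in 2 groups of 3 libraries each, labelled WT and Sdc1 KO. In both groups KLS cells, the stem and progenitor fraction of donor mice on a B6 background, had been infected with BCR-ABL and NUP98-HOXA9, selected for carrying both oncogenes and given to NSG recipients, mice that lack lymphocytes (the general methods of the study name another recipient), and the leukemic cells were later taken from the spleen. The groups differ by label in the donor only, which was WT or Sdc1-/-, an allele that the study describes as disrupting the signal peptide sequence of Syndecan-1. Ages were not given in the labels. A supplementary legend of the study calls the WT RNA-seq libraries technical replicates, and for the libraries labelled Sdc1 KO no source used here says what separates them. Every SD, n and p-value below therefore measures the spread between libraries, which is technical for WT by that legend, and not the spread between mice.

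Sheddases cleave membrane proteins close to the outer surface of the cell and release their ectodomains, which ends signaling or adhesion on that cell and can create a soluble ligand or decoy. ADAM10 and ADAM17 are the best known of them and cut Notch receptors, tumor necrosis factor and cytokine receptors, while ADAM8 is a leukocyte ADAM of granulocytes and monocytes. MMP14 is a transmembrane collagenase that also cleaves Syndecan-1 and activates pro-MMP2, MMP25 is held in the neutrophil membrane by a lipid anchor, and the TIMPs plug the active site of such enzymes, TIMP3 with the widest reach among the ADAMs.

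All 7 proteases share a zinc-binding site, in which histidine and glutamate are followed by a further histidine, a glycine and a last histidine at fixed spacing. This site was found by translating the coding sequence of 1 transcript per gene (GENCODE M21, GRCm38), once in each protease and in 0 of the 3 TIMP genes. The 33 coding bases of the site are shown for the proteases that changed and for the major sheddases, 5′ to 3′ on the gene's strand, with the codons of the fixed residues in capitals.
Adam8: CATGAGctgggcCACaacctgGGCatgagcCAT
Adam10: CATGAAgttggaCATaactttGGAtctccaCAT
Adam17: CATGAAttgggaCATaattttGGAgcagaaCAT
Mmp14: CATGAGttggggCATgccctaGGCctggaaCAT
Mmp25: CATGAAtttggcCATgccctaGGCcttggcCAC
The site lay at chr7:139987893-139987925 in exon 11 of Adam8, at chr12:21336732-21336764 in exon 11 of Adam17, at chr14:54437627-54437659 in exon 5 of Mmp14 and at chr17:23632843-23632875 in exon 5 of Mmp25. In Adam10 it was split over exons 9 and 10, within chr9:70754296-70761585. Adam10 and Adam17 had 26 of 33 bases in common, as did Mmp14 and Mmp25, whereas Adam8 and Adam17 had 19. The shared bases did not follow the family throughout. Adam9 and Mmp14 had 25 and Adam8 and Mmp14 had 23, while Adam10 and Adam15 had 19. The codons of the fixed residues add shared bases to every pair.

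The base composition and motifs of the start regions were also read, because 3 of the genes were lower in 1 group. RefSeq promoters (GRCm38.p6) were available for 9 of the 10 genes, all but Adam9, and the 250 bases before the start were searched on both strands for 4 motifs. These were the TATA box, written TATAAA, and the GC box, which binds Sp1 factors and was searched as GGGCGG. The core bound by PU.1, a myeloid transcription factor, was searched as GAGGAAG, and the site of the C/EBP factors of granulocytes as TTGCNNAA. A pair of GC boxes in Adam10 share a base, and no match overlapped one of another motif. The GC box was present in 9 of 9 genes and in 32.7% of all 32851 promoters, and the TATA box in 0 of 9 and in 12.4%. The PU.1 letters occurred in 1 of 9, Mmp25, against 10.6% of all promoters. The C/EBP letters occurred in 2 of 9, Adam8 and Adam15, against 9.56%. Timp2, also among the lower genes, held neither the PU.1 nor the C/EBP letters, and Adam15 did not differ by the test below. Shown are the windows of the proteases that changed, with matched letters in capitals, from chr7:139992563-139992812 on the minus strand for Adam8, chr17:23645270-23645519 on the minus strand for Mmp25 and chr14:54431348-54431597 on the plus strand for Mmp14.
Adam8: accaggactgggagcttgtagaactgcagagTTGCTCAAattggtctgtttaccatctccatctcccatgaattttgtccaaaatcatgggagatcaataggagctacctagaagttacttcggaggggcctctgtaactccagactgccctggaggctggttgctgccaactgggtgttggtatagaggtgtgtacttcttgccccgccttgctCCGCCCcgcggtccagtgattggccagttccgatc
Mmp25: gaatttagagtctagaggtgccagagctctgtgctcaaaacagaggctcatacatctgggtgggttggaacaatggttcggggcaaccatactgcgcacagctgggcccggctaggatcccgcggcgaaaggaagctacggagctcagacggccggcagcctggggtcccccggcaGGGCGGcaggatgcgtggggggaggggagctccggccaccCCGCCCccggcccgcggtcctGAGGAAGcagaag
Mmp14: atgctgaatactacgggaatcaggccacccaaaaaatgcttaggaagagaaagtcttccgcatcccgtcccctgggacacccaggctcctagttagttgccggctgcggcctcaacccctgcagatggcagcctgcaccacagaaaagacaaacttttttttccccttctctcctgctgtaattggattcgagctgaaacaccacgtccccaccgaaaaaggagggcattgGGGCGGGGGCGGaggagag
In Adam8 the GC box began 35 bases and the C/EBP letters 219 bases before the start, and in Mmp25 the PU.1 letters began 13 bases before it. GC content was 52.8% for Adam8, 55.2% for Mmp14 and 66.0% for Mmp25, beside a median of 52.4% over all promoters. Over the 9 windows it ran from 52.8% to 74% in Adam10, so all were above that median. The GC box is made of G and C only, and promoters matched for GC content were not compared. These matches are letters in a window and were not tested for factor binding.

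Several facts of the libraries bear on every direction below. Sdc1, the targeted gene, had values of 1.75, 1.21 and 1.51 in the WT libraries, against 3.85, 3.80 and 4.12 in the libraries labelled Sdc1 KO, so its mRNA was higher under the KO label (log2 fold change 0.99, SE 0.093, adjusted p = 1.18e-04 from limma). The groups are therefore named by their labels. The Y-linked genes Ddx3y, Eif2s3y, Kdm5d and Uty had a summed level of 0.276 to 0.308 in WT and 68.1 to 78.4 in the libraries labelled Sdc1 KO, so the sex of the cells and the Sdc1 label cannot be told apart, and Xist was not analysed here. Of the 9 markers of leukemic progenitors, all tested, 5 rose and 3 fell under the KO label (median 0.18 on the log2 scale), while their summed level, led by Mpo and Hoxa9, was 609 to 630 in WT and 579 to 586 in the other group. The 12 neutrophil markers, led by S100a8 and S100a9, were all lower in the libraries labelled Sdc1 KO after the Lin- sort, with summed levels of 13258 to 14191 in WT and 4762 to 4899. Among other lineages 6 of 6 tested eosinophil, basophil and mast cell markers and 6 of 8 erythroid markers were lower, and the other 2 erythroid markers higher. Of 5 tested megakaryocyte and platelet markers 4 were lower and 1 higher, with summed levels that overlapped, at 496 to 523 in WT and 499 to 511 under the KO label, while 4 of 5 B cell, 6 of 7 T and NK cell and 3 of 5 endothelial markers were below 1 in every library. Over all genes tested by limma, 29.3% were called higher and 31.3% lower, which stands beside each of these counts. In these bulk samples fewer cells of a type and less RNA per cell cannot be told apart.

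Of the 10 genes, 9 averaged 1 or more across the 6 libraries and were tested, and Timp1 was not. Adam8, Mmp25 and Timp2 fell in the libraries labelled Sdc1 KO, where Sdc1 mRNA was higher, Mmp14 and Timp3 rose slightly, and Adam9, Adam10, Adam15 and Adam17 did not pass the test (limma on log2(value + 1), Benjamini-Hochberg adjustment over all 12155 genes tested at 0.05). The 2 higher genes stand beside 29.3% of all tested genes called higher, and the 3 lower genes beside 31.3% called lower. Mmp25, which these counts include, reached the minimum mean through its WT libraries, so the filter favoured a fall for it. In 6 of the 9 genes the libraries of the groups did not overlap, beside 66.7% of all tested genes. By count, these genes changed about as often as the rest of the transcriptome. Their median difference on the log2 scale was -0.023, beside -0.0097 over all genes tested. On this scale, which understates changes of low genes, 1 of the 9, Adam8, was at least 2-fold lower, beside 2.92% of all tested genes.

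**Figure D1:**
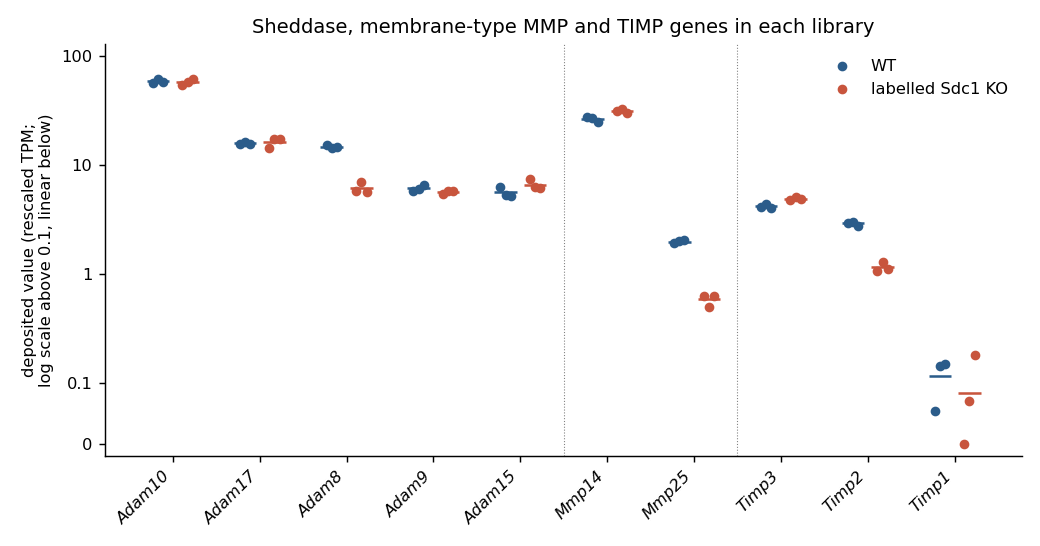
Deposited value (TPM rescaled by the authors, logarithmic above 0.1 and linear below) of each gene in the 3 WT libraries and the 3 libraries labelled Sdc1 KO. Points are libraries and bars group means, and the groups stand furthest apart for Adam8, Mmp25 and Timp2, while the points of Adam10 overlap.

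The values are TPM rescaled between libraries by the authors, a measure per transcript length, so levels of different genes can be ordered. In WT, Adam10 was the highest, at 59.4 ± 2.75 (SD, n = 3 libraries), followed by Mmp14, Adam17, Adam8, Adam9, Adam15, Timp3, Timp2, Mmp25 and Timp1. Only Adam9 and Adam15 overlapped among WT neighbours in that order. In the libraries labelled Sdc1 KO the top ranks were again Adam10, Mmp14 and Adam17, but Adam8 had moved down among Adam15 and Adam9, and these 3 overlapped with their neighbours. Adam10 alone gave 45.5% ± 1.44 of the summed level of the 7 proteases in WT and 46.5% ± 1.65 in the libraries labelled Sdc1 KO (SD, n = 3), ranges that overlap.

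Adam10, the main sheddase of Notch receptors, had values of 57.3, 62.5 and 58.4 in WT, against 54.7, 58.5 and 62.2 in the libraries labelled Sdc1 KO. The groups overlapped, and the log2 fold change was -0.023 (95% interval -0.155 to 0.109, adjusted p = 0.742 from limma). Adam17, the enzyme that releases tumor necrosis factor, was less abundant, with 15.9, 16.2 and 15.6 in WT and 14.4, 17.5 and 17.4 under the KO label. Its log2 fold change was 0.041 (95% interval -0.135 to 0.217, adjusted p = 0.660 from limma), and without replicate 1 of the libraries labelled Sdc1 KO, its lowest library, it was 0.13 with an adjusted p of 0.0422. Exons of Adam17 overlap those of Iah1 on the opposite strand, which had values of 25.4 to 32.7, and the strand setting used in quantification is not given in the sources used here.

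Adam8 (ENSMUSG00000025473, chr7:139978932-139992562, minus strand), a sheddase of activated leukocytes that can cut adhesion molecules, showed the largest of the differences between the groups on the log2(value + 1) scale. It had values of 15.2, 14.4 and 14.6 in WT, against 5.77, 7.04 and 5.64 in the libraries labelled Sdc1 KO. Every WT library was above every library of the other group, and Adam8 fell from a mean of 14.7 ± 0.448 to 6.15 ± 0.773 (SD, n = 3), which is 2.40-fold lower. Its log2 fold change was -1.14 (SE 0.079, adjusted p = 2.80e-05 from limma), and it lay between -1.25 and -1.01 over the 16 fits. The neutrophil markers moved in the same direction, as given above. So did 11 of 12 tested markers of monocytes and macrophages, beside 31.3% of all tested genes called lower. The summed level of the monocyte and macrophage markers was 85.1 to 87.8 in WT and 38.4 to 41.1 under the KO label. With a minimum mean of 5, 3 of them were tested, of which 2 were lower and 1 higher. The part of the neutrophil, monocyte and macrophage markers in the Adam8 difference was not tested. Exons of Adam8 overlap those of Gm16201 on the opposite strand, for which no value was available.

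The other ADAM members, Adam9 and Adam15, stood below Adam10 and Adam17 in both groups, and in WT also below Adam8. Under the KO label both overlapped with Adam8. Adam9 had 5.87, 6.07 and 6.57 in WT, against 5.46, 5.85 and 5.76 in the libraries labelled Sdc1 KO, groups that just failed to overlap, with a log2 difference of -0.099 (SE 0.058; limma, adjusted p = 0.177). Adam15, a relative that also has a disintegrin domain, had 6.39, 5.35 and 5.20 in WT and 7.44, 6.27 and 6.23 in the other group. WT replicate 1 overlapped the upper group, and the log2 fold change was 0.20 (SE 0.093, adjusted p = 0.0979 from limma). Adam15 passed the test when each library was set to a sum of 1000000 (log2 fold change 0.33, adjusted p = 0.0159) and without WT replicate 1 (0.28, adjusted p = 0.0329). Its exons overlap those of 4731419I09Rik on the opposite strand, for which no value was available.

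Mmp14 (ENSMUSG00000000957, chr14:54431612-54445364, plus strand), the membrane-type enzyme that degrades collagen at the cell surface, was higher in the libraries labelled Sdc1 KO. It had 28.0, 27.3 and 25.1 in WT and 31.5, 32.7 and 30.5 under the KO label, with no overlap. The rise was small, 1.18-fold from 26.8 ± 1.51 to 31.6 ± 1.12 (SD, n = 3), a log2 difference of 0.23 (SE 0.051; limma, adjusted p = 0.00650). It passed the test in all 16 fits, with log2 fold changes from 0.19 to 0.37.

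Mmp25 (ENSMUSG00000023903, chr17:23628311-23645277, minus strand), also called leukolysin and known from neutrophils, was much lower in level and moved the other way. It had 1.93, 2.01 and 2.06 in WT, against 0.634, 0.506 and 0.633 in the libraries labelled Sdc1 KO. The WT mean was 3.39-fold the other mean, 2.0 ± 0.0683 against 0.591 ± 0.0736 (SD, n = 3). It reached the minimum mean through its WT libraries, so the filter favoured a fall. On the log2(value + 1) scale the difference was -0.92 (SE 0.076, adjusted p = 6.73e-05 from limma), and -1.61 at the lowest pseudocount, 0.1. The neutrophil markers moved with it, and their part was not tested. The other membrane-type genes, named here after their values were seen, were near or below 1, and Mmp16, the highest of them, had means of 0.832 ± 0.0662 in WT and 1.10 ± 0.0727 under the KO label (SD, n = 3), below the minimum for testing.

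**Figure D2:**
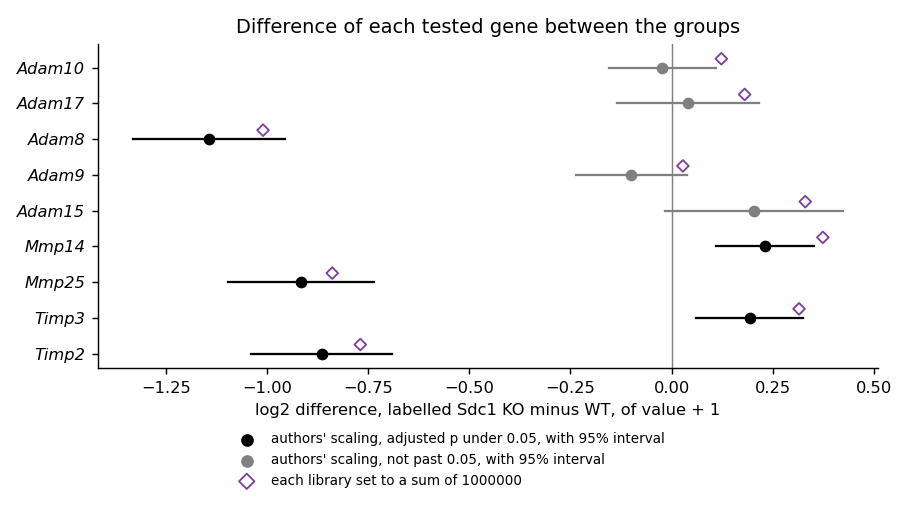
Log2 difference between the libraries labelled Sdc1 KO and WT for the 9 tested genes, with 95% intervals from limma on the authors' scaling (dots) and the estimate with each library set to a sum of 1000000 (diamonds). Adam8, Mmp25 and Timp2 lie left of 0 under both, and Mmp14 and Timp3 lie right of 0 under both.

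The TIMPs went in different directions. Timp2 (ENSMUSG00000017466, chr11:118301069-118355740, minus strand), which inhibits MMPs and, at the membrane, links MMP14 to pro-MMP2, had 2.99, 3.02 and 2.78 in WT, against 1.06, 1.30 and 1.12 in the libraries labelled Sdc1 KO. The groups did not overlap, and the mean fell from 2.93 ± 0.129 to 1.16 ± 0.122 (SD, n = 3), 2.53-fold lower, a log2 difference of -0.86 (SE 0.074; limma, adjusted p = 7.46e-05). Timp2 kept this call in all 15 fits in which it was tested.

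Timp3 (ENSMUSG00000020044, chr10:86300372-86349506, plus strand), a matrix-bound inhibitor that reaches ADAM10 and ADAM17, rose slightly. It had 4.12, 4.45 and 4.09 in WT and 4.85, 5.14 and 4.89 under the KO label, without overlap. The means were 4.22 ± 0.199 and 4.96 ± 0.158 (SD, n = 3). Its log2 fold change was 0.19 (SE 0.056, adjusted p = 0.0202 from limma). This call was lost without WT replicate 1 (adjusted p = 0.0592), without WT replicate 3 (adjusted p = 0.0672) and without Sdc1 KO replicate 2 (adjusted p = 0.0753). Timp3 lies inside Syn3 on the opposite strand with overlapping exons, and Syn3 stood at 0.0563 to 0.117.

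Timp1, an X-linked inhibitor of most MMPs, was close to the floor, at 0.0550, 0.143 and 0.150 in WT, against 0, 0.0708 and 0.183 in the libraries labelled Sdc1 KO. The groups overlapped, and with no minimum mean its adjusted p was 0.704 (limma). Fibroblasts are a well-known source of TIMPs. Of the 8 stromal markers Col1a1, Col3a1, Dcn, Lum and Pdgfra were below 1 in every library, and Col1a2 and Pdgfrb were the most abundant. The 2 that were tested split into 1 higher and 1 lower, beside 29.3% of all tested genes called higher and 31.3% lower. The summed level over all 8 was 26.4 to 27.7 in WT and 27.4 to 27.8 under the KO label. The part of stromal cells in the TIMP levels was not tested.

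The sums over the families are given as a description. The 5 ADAM genes together had 102 ± 2.32 in WT and 93.4 ± 4.91 in the libraries labelled Sdc1 KO, the 2 membrane-type MMP genes 28.8 ± 1.45 and 32.2 ± 1.05, and the 3 TIMP genes 7.26 ± 0.308 and 6.21 ± 0.30 (SD, n = 3 in each group). The summed level of the 7 proteases overlapped between the groups, at 131 ± 3.15 and 126 ± 4.84 (SD, n = 3). Protease level per unit of TIMP level was 18.0 ± 0.357 in WT and 20.2 ± 0.499 under the KO label (SD, n = 3), with no overlap. Between individual genes the ratios moved further. Mmp14 was 9.36, 9.03 and 9.01 times Timp2 in WT, against 29.6, 25.2 and 27.2 times Timp2 in the libraries labelled Sdc1 KO. Timp3 was 1.44 ± 0.0532 times Timp2 in WT and 4.30 ± 0.304 times it in the other group (SD, n = 3), so Timp3 led the TIMP level in both. Such ratios within a library do not depend on its scaling.

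Of the 19 other MMP genes, 3 were tested, all of them secreted relatives of Mmp14 and Mmp25, and these 3 fell in the libraries labelled Sdc1 KO, the libraries with more Sdc1 mRNA, beside 31.3% of all tested genes called lower. Their median was -1.64 on the log2 scale, beside -0.0097 over all genes tested. Mmp9, the gelatinase of neutrophil tertiary granules, had 11.8, 12.9 and 11.6 in WT and 1.93, 2.43 and 3.11 under the KO label, a log2 difference of -1.92 (SE 0.121; limma, adjusted p = 1.92e-05). Mmp8, the neutrophil collagenase, had 14.0, 14.6 and 13.6 and then 3.79, 4.17 and 3.52, a log2 difference of -1.64 (SE 0.063; limma, adjusted p = 2.78e-06). Mmp2, the gelatinase that MMP14 and TIMP2 activate together, had 5.28, 4.99 and 4.77 and then 1.84, 1.87 and 2.30, a log2 difference of -1.0 (SE 0.080, adjusted p = 5.42e-05 from limma). Mmp2 and Timp2 thus both fell while Mmp14 rose. The neutrophil markers were lower beside Mmp8 and Mmp9, and their part was not tested.

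The ADAMTS genes encode secreted relatives of the ADAMs that cut matrix proteins. Of 19 genes, 5 were tested, 3 rose and 0 fell, with a median of 0.54 on the log2 scale, beside 29.3% of all tested genes called higher and 31.3% lower. Adamts10 had 2.61, 1.56 and 1.48 in WT, against 6.29, 5.68 and 5.72 in the libraries labelled Sdc1 KO. Its log2 difference was 1.28 (SE 0.145, adjusted p = 2.86e-04 from limma). Adamts20 went from 1.36 ± 0.228 to 4.40 ± 0.162 (SD, n = 3), 1.20 on the log2 scale (limma, adjusted p = 3.14e-05), and Adamts3, a procollagen processing enzyme, from 4.16 ± 0.610 to 6.47 ± 0.539 (SD, n = 3), 0.54 on the log2 scale (adjusted p = 0.00258 from limma). Adamts13, which cuts von Willebrand factor, was at 5.89 ± 0.187 and 5.54 ± 0.453 (SD, n = 3) and did not pass the test. Of the 29 other ADAM genes 0 reached the minimum mean, 28 were below 1 in every library and 12 were at 0 in every library. Adam12, the highest of them, stood at 0.990 ± 0.0316 in WT and 0.926 ± 0.0940 under the KO label (SD, n = 3), and Adam1a and Adam3 were lower still.

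In the list of 7 other inhibitors and clearance genes, 2 were tested and 1 fell, with a median of -0.51 on the log2 scale, beside 31.3% of all tested genes called lower. Lrp1, an endocytic receptor that clears MMPs and TIMPs, went from 2.09 ± 0.132 to 0.998 ± 0.117 (SD, n = 3), -0.63 on the log2 scale (adjusted p = 4.79e-04 from limma). Lrp1 and Reck both reached the minimum mean of 1 through their WT libraries, so the filter favoured a fall. Reck, a membrane-anchored MMP inhibitor, had 1.14, 1.49 and 1.60 in WT and 0.636, 0.602 and 1.32 under the KO label, which overlapped. Its adjusted p was 0.0705 (limma), and 0.00733 without Sdc1 KO replicate 3, its highest library there. Spock2, below the minimum, was at 0.137 ± 0.0299 in WT and 0.0880 ± 0.0367 under the KO label (SD, n = 3), A2m was at 0 in every library, and Timp4 was at most 0.00284.

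A further list held helpers of ADAMs and other proteins linked to ADAMs and MMPs, not all of which act in maturation. Among 15 such genes, 10 were tested, 7 fell and 0 rose on the authors' scaling (median -0.20 on the log2 scale), and 4 fell and 2 rose when each library was set to a sum of 1000000. Over all genes tested 31.3% were lower and 29.3% higher on the authors' scaling, and with the sums set equal 2367 were lower and 5290 higher of 12150. Furin, a convertase that removes the prodomain of some ADAMs and of MMP14, was 2.21-fold lower in the libraries labelled Sdc1 KO. It had 71.8, 60.8 and 73.0 in WT, against 31.4, 28.5 and 33.3 there (log2 fold change -1.11, SE 0.084, adjusted p = 4.20e-05 from limma). It passed the test in all 16 fits. Among the tetraspanins that escort ADAM10, Tspan33 was lower with 22.0 ± 0.30 against 15.6 ± 0.907 (SD, n = 3; log2 fold change -0.47, adjusted p = 1.73e-04 from limma) and Tspan17 with 2.30 ± 0.191 against 1.29 ± 0.366 (SD, n = 3; -0.54, adjusted p = 0.00913). Bsg and Pdia6, the most abundant of the list at 428 ± 8.79 and 171 ± 4.06 in WT (SD, n = 3), fell by 0.093 and 0.13 on the log2 scale, and their direction turned with each library set to a sum of 1000000.

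**Figure D3:**
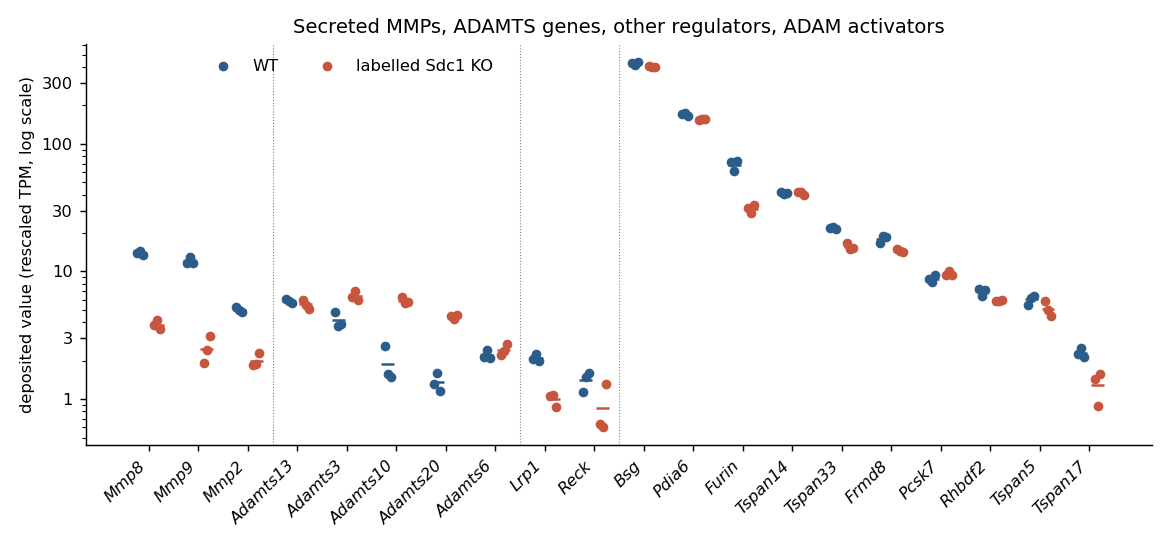
Deposited value (TPM rescaled by the authors, log axis) in each library for the tested genes outside the 10, with dotted lines between other MMP genes, ADAMTS genes, other inhibitors and clearance genes, and ADAM helpers with other linked genes. Points are libraries and bars are group means; Mmp8, Mmp9, Mmp2, Lrp1 and Furin are lower, and Adamts10 and Adamts20 higher, in the libraries labelled Sdc1 KO.

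The transcripts of proteins that sheddases can release were counted as well, though mRNA does not show shedding. Of 31 such genes, 20 were tested, 5 rose and 11 fell on the authors' scaling (median -0.12 on the log2 scale), and 5 rose and 6 fell when each library was set to a sum of 1000000. On the authors' scaling the 5 of 20 that rose stand beside 29.3% of all tested genes called higher, and the 11 that fell beside 31.3% called lower. With the sums set equal, 5290 of all 12150 genes tested were higher and 2367 lower. Il1r2, the decoy receptor for interleukin 1 that is shed from neutrophils, had 86.5, 86.2 and 87.2 in WT, against 20.0, 20.4 and 18.1 in the libraries labelled Sdc1 KO, a log2 difference of -2.10 (SE 0.048; limma, adjusted p = 6.17e-07). Csf1r, the receptor of the macrophage growth factor CSF1 and an ADAM17 substrate, had 2.12, 1.76 and 1.98 in WT, against 0.498, 0.424 and 0.614 under the KO label, a log2 difference of -0.97 (SE 0.090; limma, adjusted p = 1.11e-04), and it reached the minimum mean through its WT libraries. Selplg, whose protein PSGL-1 binds selectins, went from 61.0 ± 2.66 to 50.3 ± 3.29 (SD, n = 3; log2 fold change -0.27, adjusted p = 0.00456 from limma), a call lost with each library set to a sum of 1000000 (-0.13, adjusted p = 0.0878). Spn, for the sialomucin CD43, was the most abundant of the list at 269 ± 1.24 and 252 ± 3.24 (SD, n = 3), and its small fall turned to 0.054 with each library set to a sum of 1000000. Sdc1 itself, whose protein is a substrate of MMP14 and ADAM17, showed the largest rise of the list, as given above. The neutrophil markers were lower beside Il1r2, and 11 of 12 tested monocyte and macrophage markers beside Csf1r, and their part was not tested.

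**Figure D4:**
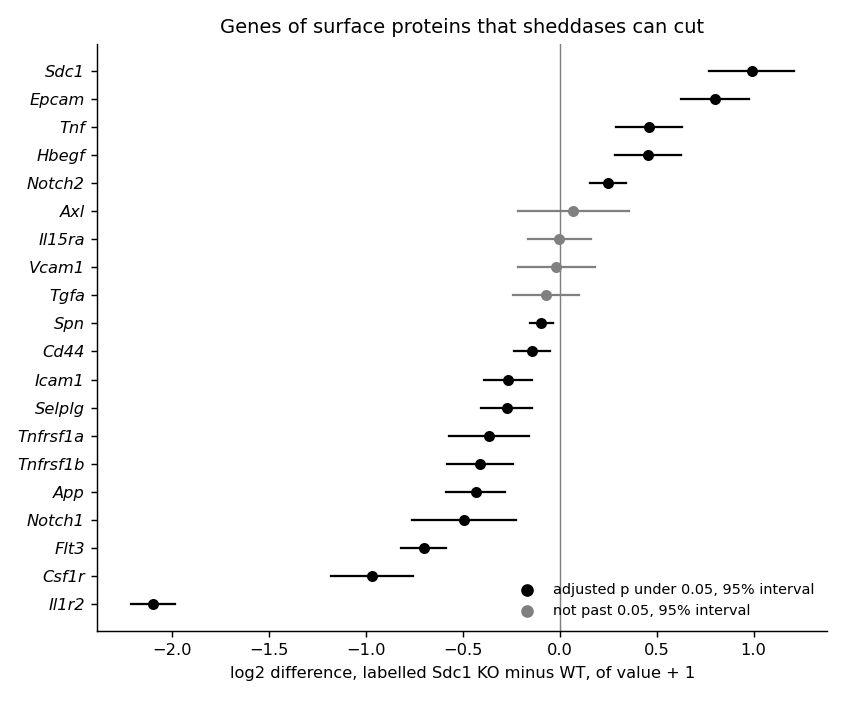
Log2 difference between the libraries labelled Sdc1 KO and WT, with 95% intervals from limma, for the 20 tested genes of surface proteins that sheddases can cut. Il1r2 and Csf1r are furthest to the left, and Sdc1 and Epcam furthest to the right.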

How the data were processed

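The authors quantified single-end reads of stranded mRNA libraries with kallisto and deposited a signal per gene and library, TPM rescaled between libraries. The sums run from 944973 to 1058263, and read depth is unknown, so no counting error can be given. Per the labels' processing notes the genome build was mm10 and sleuth 0.30.0 was used. A table of the authors' sleuth comparison (p-values, q-values, effect sizes and variances) was not used. Symbols were matched for 35454 of 36083 identifiers. Samples were grouped by label, 3 WT and 3 Sdc1 KO.

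The 12155 genes that averaged 1 or more entered limma 3.58.1 (R 4.3.3) as log2(value + 1). The model held the group alone, eBayes used a variance trend, and p-values were adjusted by Benjamini-Hochberg with a threshold of 0.05. Unscaled TPM had been assumed, and the test was kept for the rescaled values. Other steps used Python 3.11.15 and pandas 2.3.3. The members and lists were chosen with earlier results of these data known, so counts over lists are descriptions. Named are all members, Sdc1 and, from each list, the 3 genes with the highest mean and up to 3 with the largest change among those called. In all, 16 fits were made, in which the alternatives changed the pseudocount, minimum mean, scaling, variance trend, block or libraries. The script was tested on simulated data. Reference proteins, cysteine-switch and dibasic sites and whole-protein identity were not analysed here, and the zinc-binding site was searched in translated coding sequence instead. Some genes of the lists are not reported here, and the counts over those lists leave them out.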

Additional observations from a re-analysis of the deposited data

How the results depend on the processing

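Of 132 alternative values of the tested genes among the 10, 118 kept their direction and side of the threshold, 3 lost the call, 4 gained it and 7 turned direction, none of the 7 called. The calls of Adam8, Mmp14, Mmp25 and Timp2 held in every fit that tested them. With a minimum mean of 5, which left 6 of the genes in the test, 1 was higher and 1 lower. With each library left out in turn, 1 to 3 genes were higher, 1 of them without WT replicate 3 or Sdc1 KO replicate 2, and 3 were lower each time. With each library set to a sum of 1000000 the median over all genes went from -0.0097 to 0.12 on the log2 scale, 30.9% of the calls were lower instead of 51.7% (5290 higher and 2367 lower), and 3 of the genes were higher and 3 lower. Relative to that median Adam8 stood at -1.13, Mmp25 at -0.96, Timp2 at -0.89, Mmp14 at 0.25, Timp3 at 0.19 and Adam10 at 0 to 2 decimals. Under the same scaling Adam9 turned to 0.028, Adam10 to 0.12, Adamts13 to 0.049, Bsg to 0.055, Pdia6 to 0.019 and Spn to 0.054, and the log2 difference of the summed level moved from -0.13 to 0.023 for the ADAM genes, from 0.16 to 0.31 for the membrane-type MMP genes and from -0.23 to -0.078 for the TIMP genes. Quantile normalization turned Adam10 to 0.036 and Spn to 0.0032. With each library left out in turn, Adam10 ran from -0.068 to 0.023 and Adam17 from -0.0042 to 0.13. The causes were not tested.

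With the replicate block, 3653 of all genes were higher and 3971 lower, and of the 10 genes 3 were higher, Adam15 being added at 0.20 on the log2 scale (limma, adjusted p = 0.0160), and 3 lower. Same-numbered libraries correlated at 0.151, -0.0083 and 0.018 in their deviations, and WT replicate 2 correlated best with Sdc1 KO replicate 3, at 0.142, so the numbers were not taken to pair the samples. Reck also passed under the block. Depth limits the low genes most, among them Timp1, Mmp25 and Timp2, and cannot be given here because no counts were used.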
